A study of Marchantia polymorpha and Klebsormidium nitens with 125 samples.

Results

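Of the 19355 Marchantia polymorpha genes counted in these libraries, 61 had less mRNA in plants short of nitrate and in plants short of phosphate, while in plants short of sucrose they kept at least 0.85 of the control level. M. polymorpha is a liverwort, and the plants were Tak-1, its male laboratory strain. The 61 genes were picked on mean CPM, which scales each count to a common library total, in the wild-type starvation experiment. Their ratio to the control, taken as (starved + 1)/(control + 1), was 0.7 or less for nitrate and for phosphate and 0.85 or more for sucrose. The control mean was 5 CPM or more, a level reached by 10074 genes. Of these, 209 genes met both mineral limits, and 103 of the 209 were at 0.7 or less without sucrose too, with another 45 between 0.7 and 0.85. A further 2 genes set aside by name did not meet the limits in any case.

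Nitrate is the main nitrogen source of many plants, taken up by transporters and reduced to ammonium before it enters amino acids. Phosphate is taken up as such and is needed for nucleic acids, phospholipids and ATP. Sucrose in the medium adds reduced carbon to what the plant fixes by photosynthesis, so leaving it out withdraws carbon and energy without withdrawing a mineral.

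Whole gemmalings, which are young plants grown from gemmae, were kept in liquid Yamagami medium for 7 days and then for 5 days in medium with nitrate cut to 1%, phosphate cut to 1% or sucrose cut to 0%. In the wild-type time course, starved Tak-1 plants were set against Tak-1 plants in full medium, and other starved plants got full medium back for 6, 24 or 72 h. A second set compared the knock-out lines Mpcsd-2, Mperf20-21 and Mphd9-14 with Tak-1 in control conditions, and another held each knock-out line starved of nitrate, phosphate or sucrose beside its own control. Each knock-out line carries a single allele (of MpCSD, MpERF20 or MpHD9, which encode transcription factors), and all groups shared the culture medium and the 7 days of growth. The mutant starvation set has no Tak-1 plants.

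The 3 sets held 86 libraries in 29 groups of 3 libraries, except for 2 libraries of sucrose-starved Mperf20-21, with 16878159 to 38992957 counts each. Genes of the male V chromosome took 0.206% to 0.681% of the counts in these libraries. Transcripts of the targeted genes were still counted in the mutants, with means of 661 CPM for MpCSD in Mpcsd-2 against 835 in Tak-1, 6.77 CPM for MpERF20 in Mperf20-21 against 12.1 in Tak-1, and 33.7 CPM for MpHD9 in Mphd9-14 against 47.8 in Tak-1. In the mutant starvation set, control plants averaged 646 CPM for MpCSD in Mpcsd-2, against 483 in Mperf20-21 and 491.6 in Mphd9-14. An edited gene can still be transcribed, so these levels do not check the genotypes. In Mpcsd-2, nitrate-starved replicate 3 and control replicate 2 resembled each other (r of 0.993 over genes) more than the other libraries of their own groups (mean r of 0.9805 and 0.986). Sucrose-starved Mpcsd-2 replicate 2 (mean r of 0.968 with its own group) and wild-type replicate 2 at 6 h of sucrose resupply (0.973) also stood apart, and counts that rest on these libraries are given with and without them. Marker genes of oil body cells (5 matched) summed to 101 to 111 CPM in nitrate-starved, 89.1 to 105 in phosphate-starved and 77.1 to 87.6 in sucrose-starved Tak-1, against 105 to 120 in the control. Marker genes of gemma cups and meristems (3 matched) summed to 24.1 to 31.3, 13.9 to 25.6 and 12.1 to 19.5 CPM in those starved groups, against 11.2 to 13 in the control. Of these 3 markers, 2, 1 and 1 were called higher and 0, 0 and 1 lower in those groups, so the sums do not stand for each marker. None of these 8 markers was at 0, no rhizoid marker matched, and the part of cell composition in what follows was not tested. In RNA of whole plants, fewer cells of a type and less RNA per cell cannot be told apart.

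The starved and control wild-type libraries chose the 61 genes, so their values are a description. The median ratio was 0.583 after nitrate starvation (range 0.326 to 0.692), 0.605 after phosphate starvation (0.0833 to 0.699) and 0.946 after sucrose starvation (0.857 to 1.43). Over the 10074 genes expressed in the control, the medians were 1.02, 1.03 and 0.949. The ratio was 0.5 or less for 13 genes without nitrate and for 13 without phosphate, and 1 or more for 16 genes without sucrose. All 3 starved libraries lay under all 3 control libraries for 59 genes without nitrate, 60 without phosphate and 9 without sucrose. The same was not counted over all expressed genes, so these numbers have no background to be read against. An adjusted p under 0.05, by edgeR's quasi-likelihood test with Benjamini-Hochberg adjustment over 13504 genes, called 57 of the 61 lower without nitrate (15.1% of the genes tested), 58 lower without phosphate (12.3%) and 0 lower but 2 higher without sucrose (17.2% lower and 18.1% higher). The choice of genes fixed these counts.

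**Figure D1:**
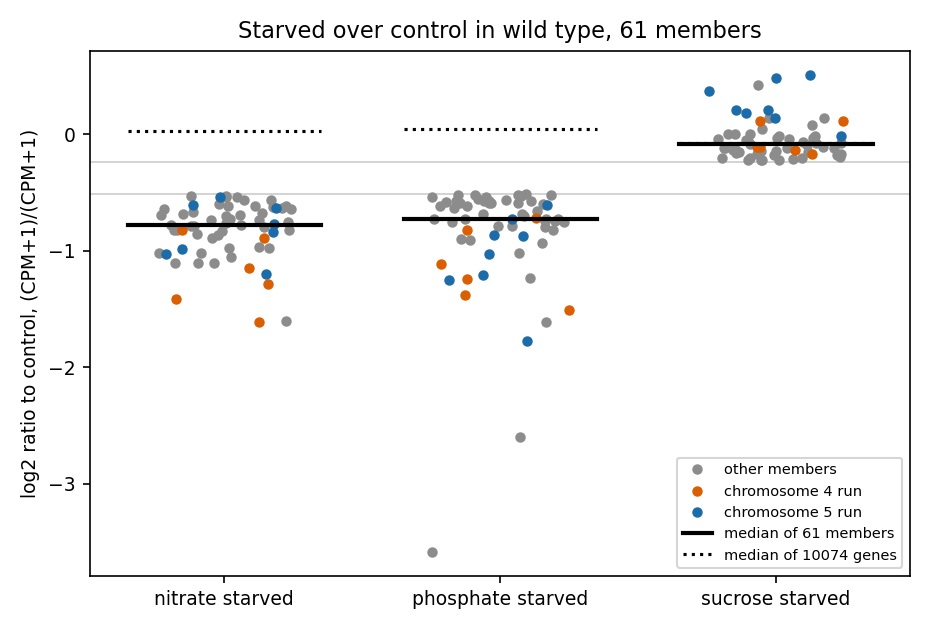
Log2 ratio of mean CPM + 1 in nitrate-, phosphate- and sucrose-starved Tak-1 over the control, 1 point per gene for the 61 genes, coloured by the neighbouring genes on chromosome 4, those on chromosome 5 and the rest. The solid line is the median of the 61, the dotted line that of the 10074 expressed genes, and the grey lines are the limits of 0.7 and 0.85: the nitrate and phosphate points lie under the lower limit and the sucrose points over the upper one, as the choice requires.

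The limits pass through a continuous range. MpPTH2 (0.692) and Mp1g07170 (0.691) were just inside the nitrate limit, and Mp1g27800 (0.710) and Mp2g25140 (0.726) just outside. MpRLK-Pelle_WAK_LRK10L-7 (0.699) and Mp2g19070 (0.698) were just inside the phosphate limit, with Mp6g11330 (0.702) and Mp1g26280 (0.704) outside. For sucrose, Mp2g04090 and Mp1g11680 (both 0.857) were in, and Mp3g02660 (0.8498) and Mp3g14770 (0.849) out. Mp5g10720 (5.55 CPM) and Mp1g01350 (5.59 CPM) were closest above the level limit, and MpPOD161 (3.69 CPM) and Mp5g11310 (2.61 CPM) closest under it among genes that met the ratios.

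Position on the chromosome was not part of the choice. In the gene order of the reference annotation, 15 of the 61 genes lay directly beside another of them. Of the 72 expressed genes that were direct neighbours of the 61, 15 (20.8%) belonged to the 61 themselves, against 61 of 10074 expressed genes (0.606%). There were 3 runs, taken as members with at most 5 other genes between them, and these held 6, 2 and 8 of the 61. By chromosome, the 61 genes numbered 7 on chromosome 1, 9 on 2, 7 on 3, 10 on 4, 17 on 5, 3 on 6, 2 on 7 and 6 on 8. Adjacent genes of like sequence can share reads, and the counting program, its handling of such reads and its strand setting are unknown here. Values of single genes in a run are therefore less certain than their sum.

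The chromosome 4 run spans the 9 consecutive genes Mp4g05960 to Mp4g06040, none with a symbol. All 9 had low ratios without nitrate (0.299 to 0.567) and without phosphate (0.352 to 0.607). The 3 that are not among the 61, Mp4g05970, Mp4g05980 and Mp4g05990, missed the sucrose limit with ratios of 0.734, 0.834 and 0.779. The sequence of low values ended sharply on both sides: Mp4g05950 had ratios of 1.06 without nitrate and 0.978 without phosphate, and Mp4g06050 had 0.913 and 0.840. Summed over the 9 genes, the level was 1983, 2056 and 2607 CPM in nitrate-starved libraries, 2168, 2222 and 2724 in phosphate-starved ones and 3973, 4113 and 4692 in sucrose-starved ones, against 4335, 4732 and 4908 CPM in the control. Every mineral-starved library thus held less of the run than every sucrose-starved or control library. Mp4g06000 had 21.2, 19.5 and 19.4 CPM without nitrate, 19.1, 24.4 and 21.4 without phosphate and 58.9, 86.5 and 61.2 without sucrose, against 63.2, 68.3 and 58.9 CPM in the control. Mp4g06040 had 145, 109 and 110 CPM without nitrate, 114, 141 and 119 without phosphate and 277, 327 and 264 without sucrose, against 336, 340 and 301 CPM in the control.

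The chromosome 5 run spans the 8 genes Mp5g04550 to Mp5g04630, again without symbols, and all 8 are among the 61. Ratios were 0.435 to 0.688 without nitrate, 0.293 to 0.656 without phosphate and 0.989 to 1.43 without sucrose. The flanking genes shared the phosphate side in part: Mp5g04540 had ratios of 0.972 without nitrate, 0.662 without phosphate and 1.49 without sucrose, and Mp5g04640 had 0.819, 0.683 and 2.16. Summed over the 8 genes, the level was 852.6, 922.1 and 1214 CPM without nitrate, 740.4, 964.5 and 965.2 without phosphate and 1578, 2120 and 2209 without sucrose, against 1524, 1707 and 1864 CPM in the control. Mp5g04590, the gene of the run with the lowest mineral ratios, had 68.7, 63.5 and 94.4 CPM without nitrate, 54.4, 64.6 and 32.7 without phosphate and 181, 251 and 301 without sucrose, against 180, 195 and 150 CPM in the control. The mineral-starved libraries did not overlap the others for this gene. A further run is the pair Mp4g15080 and Mp4g15090, with ratios of 0.651 and 0.651 without nitrate, 0.597 and 0.672 without phosphate and 0.981 and 0.925 without sucrose.

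**Figure D2:**
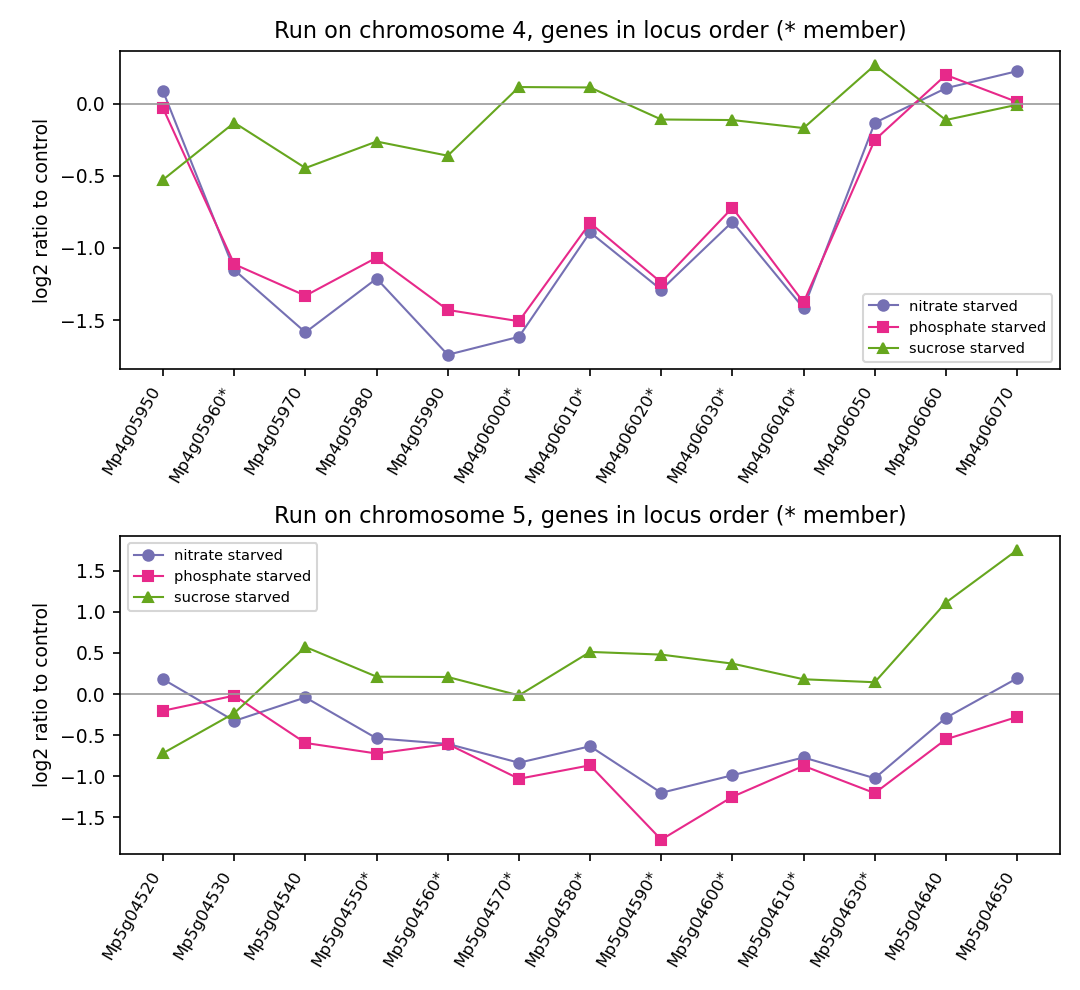
Log2 ratio of mean CPM + 1 in starved over control Tak-1 for consecutive genes on chromosome 4 (upper panel) and chromosome 5 (lower panel), in locus order, with 1 line each for nitrate, phosphate and sucrose starvation; genes of the 61 carry an asterisk and genes under 1 CPM in the control are not drawn. The nitrate and phosphate lines dip together over 9 genes on chromosome 4 and 8 genes on chromosome 5, while the sucrose line stays higher.

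The gene with the lowest phosphate ratio was Mp2g25340, at 0.0833. It had 13.6, 6.21 and 6.17 CPM without nitrate, 0.376, 0.229 and 0.326 without phosphate and 14.8, 4.76 and 21.7 without sucrose, against 11.1, 15.2 and 17.9 CPM in the control. The transcript was all but absent in each phosphate-starved library, whereas the nitrate- and sucrose-starved libraries spread widely and overlapped the control. Mp2g15290, the next lowest on phosphate among genes outside the runs after MpCupin84, had 18.0, 17.6 and 14.6 CPM without nitrate, 8.69, 6.73 and 8.34 without phosphate and 38.9, 25.5 and 41.9 without sucrose, against 28.3, 23.2 and 27.2 CPM in the control. Neither gene has a symbol, and no role is given to them here.

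These loci were also the ones with the greatest falls in phosphate-starved mutants, in libraries that played no part in their choice. Mp2g25340 had 0.127, 0.0703 and 0.0893 CPM in phosphate-starved Mpcsd-2, against 30.3, 9.26 and 24.9 in its control. It had 0.201, 0.0534 and 0.0503 CPM in phosphate-starved Mperf20-21, against 32.0, 37.7 and 31.1 in its control, and 0.101, 0.439 and 0 CPM in phosphate-starved Mphd9-14, against 33.9, 17.2 and 33.5. The groups were far apart in each line, and the 3 phosphate-starved libraries together held only 7, 6 and 11 counts in Mpcsd-2, Mperf20-21 and Mphd9-14. The fitted log2 changes were -7.74 ± 0.91 in Mpcsd-2 (SE; edgeR adjusted p 3.5e-07), -8.29 ± 0.92 in Mperf20-21 (2.3e-07) and -7.15 ± 0.85 in Mphd9-14 (1.4e-06), sizes that rest on very few counts. Mp2g15290 had 4.12, 4.43 and 5.31 CPM in phosphate-starved Mpcsd-2, against 48.7, 41.7 and 43.5 in its control. It had 5.32, 4.27 and 6.34 CPM in phosphate-starved Mperf20-21, against 39.2, 33.7 and 31.9, and 4.14, 4.93 and 4.27 CPM in phosphate-starved Mphd9-14, against 31.6, 23.2 and 32.3. It fell by 3.26 ± 0.24 on the log2 scale in Mpcsd-2 (edgeR adjusted p 2.4e-11), by 2.73 ± 0.24 in Mperf20-21 (2.1e-09) and by 2.7 ± 0.25 in Mphd9-14 (6.1e-09), with no overlap of libraries. Neither gene was called after nitrate starvation in any of these lines.

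**Figure D3:**
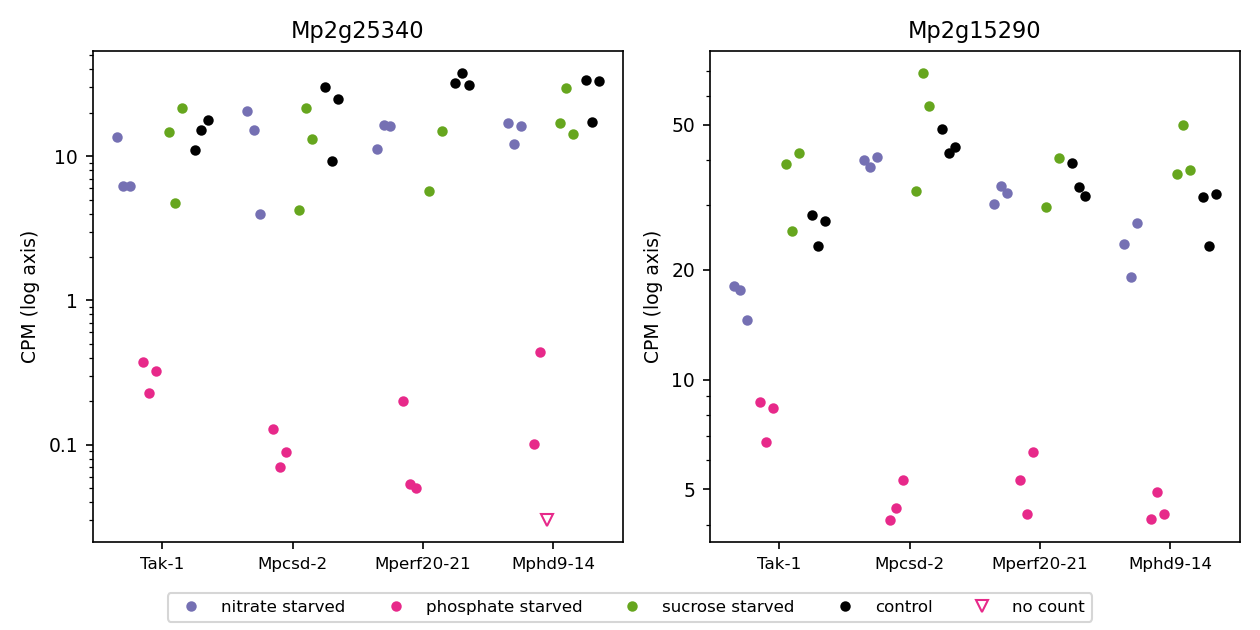
CPM per library (log axis) of Mp2g25340 and Mp2g15290 in Tak-1 of the time course and in Mpcsd-2, Mperf20-21 and Mphd9-14, each starved of nitrate, phosphate or sucrose and in control medium; an open triangle marks a library with no count. Phosphate-starved libraries sit under all other libraries of their line for both genes, at 0.439 CPM or less for Mp2g25340.

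Only 9 of the 61 genes have a symbol in the reference table. MpCupin84, a protein of the cupin superfamily, had 30.0, 4.27 and 2.36 CPM without nitrate, 1.78, 13.01 and 1.99 without phosphate and 39.6, 17.7 and 46.7 without sucrose, against 34.0, 50.4 and 32.8 CPM in the control. The mineral-starved libraries lay below the control libraries but spread widely, with nitrate-starved replicate 1 just under the lowest control value. MpELO2, a fatty acid elongase by name, had 22.8, 21.2 and 18.2 CPM without nitrate, 19.6, 20.7 and 20.1 without phosphate and 38.9, 47.8 and 34.4 without sucrose, against 40.5, 45.9 and 38.8 CPM in the control. Both mineral-starved groups were clear of the other libraries. MpRLK-Pelle_WAK_LRK10L-7, a receptor-like kinase, had 5.87, 4.97 and 4.68 CPM without nitrate, 4.96, 10.1 and 4.79 without phosphate and 9.37, 10.1 and 11.2 without sucrose, against 8.66, 11.9 and 9.13 CPM in the control. Phosphate-starved replicate 2 of this kinase lay inside the control range.

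The other 6 symbols are named here for having one, after their values were seen. Ratios without nitrate, without phosphate and without sucrose were 0.549, 0.617 and 0.923 for MpFBA4, a fructose-bisphosphate aldolase of glycolysis and the Calvin cycle. They were 0.644, 0.670 and 0.861 for MpLAR-like5, named for its likeness to leucoanthocyanidin reductase of flavonoid synthesis, and 0.660, 0.673 and 0.905 for MpHDAC12, a histone deacetylase. MpRUP, a repressor of UV-B photomorphogenesis, had ratios of 0.648, 0.698 and 0.958. MpIDS4 had 0.583, 0.689 and 1.10, and MpPTH2 had 0.692, 0.698 and 0.919. The 5 genes with the most counts in the control were Mp3g03990, Mp4g15080, Mp8g15740, Mp4g06030 and Mp7g04850. Mp3g03990, the first of these, had 4040, 3468 and 3691 CPM without nitrate, 4249, 4207 and 4329 without phosphate and 5924, 6715 and 5593 without sucrose, against 6337, 6590 and 6044 CPM in the control.

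After nitrate or phosphate came back, the middle of the 61 genes lay nearer to the control level. The median ratio of mean CPM to the control was 0.567 in nitrate-starved plants and 0.811, 0.856 and 0.912 after 6, 24 and 72 h of resupply. It was 0.597 in phosphate-starved plants and 0.870, 0.870 and 0.937 after 6, 24 and 72 h. Plants without sucrose had a median of 0.945, and 0.811, 0.858 and 0.905 after 6, 24 and 72 h of sucrose resupply, so the median was lower 6 h after sucrose came back than before (0.789 at 6 h without replicate 2). These ratios use the control libraries of the choice and carry no test. The choice also set limits on the starved values, and how much of each shift away from them follows from the choice was not tested. Over all expressed genes the medians of the starved and resupplied groups were between 0.947 and 1.03.

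Resupplied libraries alone, which took no part in the choice, allow a test of 72 h against 6 h. After nitrate resupply, 24 of the 61 genes were higher at 72 h (39.3%, against 16.8% of the 13504 genes tested) and 1 was lower (1.64%, against 16.9%). After phosphate resupply, 9 were higher (14.8%, against 13.3% of all genes, a share near the background) and 3 lower (4.92%, against 11.2%). After sucrose resupply, 29 were higher (47.5%, against 28.1%) and 10 lower (16.4%, against 27.1%), or 30 and 11 without replicate 2 at 6 h. The shares of all genes are those with all libraries. The median log2 changes of the 61 were 0.25, 0.09 and 0.22 for nitrate, phosphate and sucrose, and the medians of all genes were 0.00, 0.01 and 0.01.

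Single genes show the late rise. Mp5g14220, which has no symbol, had 111, 95.4 and 103 CPM at 72 h of nitrate resupply, against 59.6, 49.6 and 39.01 at 6 h (log2 change 1.13 ± 0.13, SE; edgeR adjusted p 3.5e-07). After sucrose it had 106, 116 and 89.8 CPM at 72 h, against 37.6, 25.1 and 35.9 at 6 h (1.75 ± 0.14, edgeR adjusted p 1.9e-11). Without replicate 2 at 6 h of sucrose resupply its change was 1.58 ± 0.14 (edgeR adjusted p 4.7e-10). The 72 h libraries were above all 6 h libraries in both series. Mp2g15290 had 34.9, 24.1 and 29.2 CPM at 72 h of nitrate resupply, against 8.76, 8.41 and 10.7 at 6 h (1.72 ± 0.19, edgeR adjusted p 1.0e-07), so its 6 h level was under that of nitrate-starved plants as well. Mp1g01350 was higher at 72 h after nitrate (1.20 ± 0.21), phosphate (1.25 ± 0.22) and sucrose (1.41 ± 0.22), at levels of 1.39 to 6.16 CPM in these 18 libraries.

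Other genes were higher at 6 h than at 72 h. Mp2g25340 had 15.7, 2.66 and 11.5 CPM at 72 h of phosphate resupply, against 24.2, 64.0 and 47.5 at 6 h (-2.13 ± 0.54, edgeR adjusted p 0.0040), and 0.376 CPM or less in the phosphate-starved plants. Each 6 h library was thus above every control library, where the gene reached 17.9 CPM. MpELO2 had 36.1, 27.3 and 36.6 CPM at 72 h of phosphate resupply, against 42.9, 53.5 and 52.5 at 6 h (-0.54 ± 0.17), and 36.4, 35.4 and 32.6 CPM at 72 h of sucrose resupply, against 45.6, 81.5 and 50.6 at 6 h (-0.67 ± 0.17). The MpELO2 calls rest on single libraries: without replicate 2 at 6 h of sucrose resupply the change was -0.38 ± 0.16 (edgeR adjusted p 0.0502), and the phosphate call was lost without replicate 2 or 3 at 6 h or replicate 2 at 72 h. Mp8g05910 had 1008, 885 and 1051 CPM at 72 h of sucrose resupply, against 1607, 2513 and 1724 at 6 h (-0.90 ± 0.14, edgeR adjusted p 2.9e-06). Its change was -0.68 ± 0.14 (edgeR adjusted p 0.00011) without replicate 2 at 6 h. The 6 h libraries of each of these comparisons were all above the 72 h ones.

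The runs went separate ways. On chromosome 4, 3, 4 and 8 of the 9 genes were higher at 72 h than at 6 h of nitrate, phosphate and sucrose resupply, and none was lower. Of all genes, 16.8%, 13.3% and 28.1% were higher. On chromosome 5, edgeR called 0 of 8 genes after nitrate or phosphate. After sucrose resupply 4 were lower at 72 h than at 6 h (27.1% of all genes), or all 8 without replicate 2 at 6 h. The summed chromosome 5 level was 527.8, 2476 and 2912 CPM at 6 h of sucrose resupply, where replicate 2 is the low one, then 3164, 3357 and 3771 CPM at 24 h and 1130, 1421 and 1547 CPM at 72 h. All the 24 h libraries were above those at 72 h.

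**Figure D4:**
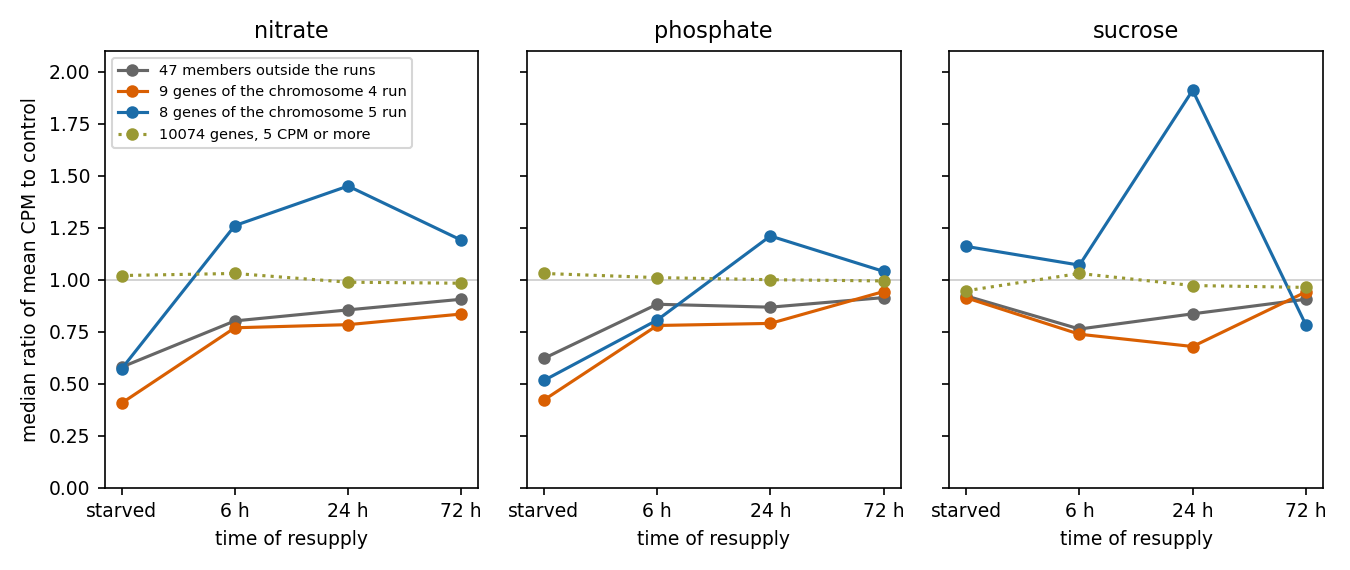
Median ratio of mean CPM to the control in Tak-1, starved and after 6, 24 and 72 h of resupply, in 1 panel each for nitrate, phosphate and sucrose, for the members outside the 2 long runs, the chromosome 4 run, the chromosome 5 run and all 10074 expressed genes. The chromosome 4 run stays under the control throughout (0.679 to 0.943 after resupply), and the chromosome 5 run reaches 1.45 at 24 h of nitrate and 1.91 at 24 h of sucrose.

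At 6 h, nitrate-resupplied plants differed from sucrose-resupplied ones in 9 lower and 9 higher genes of the 61 (14.8% each, against 17.6% lower and 16.9% higher of all genes), which is near the background, and in 9 lower and 6 higher genes without sucrose resupply replicate 2. Phosphate-resupplied plants had 21 higher (34.4%, against 19.9%) and 6 lower genes (9.84%, against 21.4%) than sucrose-resupplied plants at 6 h, and 23 higher and 12 lower ones without sucrose resupply replicate 2. The 12 lower genes then include all 8 of the chromosome 5 run, of which 0 were called with all libraries. The shares of all genes are those with all libraries, so the counts without that replicate have no background here. MpCupin84 had 18.4, 60.4 and 56.1 CPM at 6 h of phosphate resupply, against 5.18, 4.04 and 4.31 at 6 h of sucrose resupply (3.33 ± 0.68, edgeR adjusted p 0.00019), with no overlap. Without sucrose resupply replicate 2 its change was 3.25 ± 0.79 (edgeR adjusted p 0.0019). At 72 h edgeR called 0 of the 61 in either comparison: 6 had an unadjusted p under 0.05 for nitrate against sucrose and 7 for phosphate against sucrose, DESeq2 called 0 and 1, and 0.0518% and 0.148% of all genes were called. Both comparisons share the sucrose-resupplied libraries. Oil body cell markers summed to 140 to 189 CPM at 6 h of sucrose resupply, against 83.2 to 96.3 at 72 h, and their part in these differences was not tested.

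The mutant starvation set asks whether the same genes were low in the starved knock-out lines of MpCSD, MpERF20 and MpHD9. In each line the 3 starvations share the control of that line. After nitrate starvation, 4 of the 61 genes were lower in Mperf20-21 (6.56%, against 0.805% of 13162 genes tested, with 2.45% higher). In Mpcsd-2 and in Mphd9-14 edgeR called 0, with 0.167% and 0.144% of all genes lower, 1.68% and 1.07% higher, 1 and 3 of the 61 at an unadjusted p under 0.05, and 0 by DESeq2. The median log2 change of the 61 was 0.04 in Mpcsd-2, -0.16 in Mperf20-21 and 0.07 in Mphd9-14, against 0.00, 0.00 and -0.01 over all genes. All 4 genes in Mperf20-21 were of the chromosome 5 run: Mp5g04630 fell by 1.81 ± 0.37, Mp5g04600 by 1.41 ± 0.38, Mp5g04550 by 1.23 ± 0.34 and Mp5g04560 by 0.79 ± 0.23 on the log2 scale. Mp5g04630 had 8.80, 12.6 and 16.2 CPM in nitrate-starved Mperf20-21, against 41.9, 54.4 and 33.4 in its control (edgeR adjusted p 0.0040). The count of 4 was 0 without nitrate-starved replicate 1, 1 without nitrate-starved replicate 2, and 2, 1 and 1 without control replicates 1, 2 and 3.

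After phosphate starvation, 3 of the 61 genes were lower in Mpcsd-2 (4.92%, against 1.4%), 6 in Mperf20-21 (9.84%, against 0.767%) and 2 in Mphd9-14 (3.28%, against 0.312%). In these 3 lines edgeR and DESeq2 called 0 of the 61 higher, where edgeR called 6.4%, 3.81% and 1.99% of all genes higher, and 6, 17 and 3 of the 61 had an unadjusted p under 0.05 in either direction. The share of all genes at that unadjusted limit is not given here. Mp2g25340 and Mp2g15290, given above, were among the lower genes in each line. MpPTH2 had 155, 158 and 162 CPM in phosphate-starved Mpcsd-2, against 181, 194 and 191 in its control (-0.25 ± 0.07, edgeR adjusted p 0.019), and 174, 167 and 161 CPM in phosphate-starved Mperf20-21, against 190, 215 and 191 (-0.26 ± 0.07, 0.017). The rest in Mperf20-21 were Mp7g07930 (-0.54 ± 0.15), MpRUP (-0.48 ± 0.14) and Mp5g05200 (-0.21 ± 0.06), named after their values were seen. The Mperf20-21 count was 2 without control replicate 2, 3 without phosphate-starved replicate 1 and 2 without phosphate-starved replicate 2. The Mpcsd-2 count was 5 without control replicate 1, and 1 gene was called higher there without control replicate 2.

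After sucrose starvation, 11 of the 61 genes were higher in Mpcsd-2 (18%, against 15.3%) and 11 in Mphd9-14 (18%, against 12.4%), while edgeR and DESeq2 called 0 higher in Mperf20-21 (8.38% of all genes), where 9 of the 61 had an unadjusted p under 0.05 in either direction. Lower genes numbered 3 in Mpcsd-2 (10.9% of all genes), 5 in Mperf20-21 (6.96%) and 2 in Mphd9-14 (9.99%). The shares of higher genes are near the background, and 8 of the 11 in either line are the chromosome 5 run, by 0.70 to 1.46 on the log2 scale in Mpcsd-2 and 1.00 to 1.80 in Mphd9-14. The summed level of the run was 1310, 1713 and 3000 CPM in sucrose-starved Mpcsd-2, against 1036, 1176 and 1458 in its control, with the highest value in replicate 2, the library that stood apart. Without it, 0 of the 61 were higher in Mpcsd-2, and without control replicate 1 or 3 it was 2. In sucrose-starved Mphd9-14 the sum was 1452, 1784 and 2242 CPM, against 683.9, 885.6 and 923 in its control, and the groups were apart. Mp5g04590 had 231, 320 and 179 CPM in sucrose-starved Mphd9-14, against 61.4, 72.6 and 90.6 in its control (1.80 ± 0.35, edgeR adjusted p 0.00033). The Mphd9-14 count was 7 without control replicate 1 or sucrose-starved replicate 2. The Mperf20-21 count of 5 lower genes was 1 to 3 without any single library of control or sucrose-starved Mperf20-21, and the Mpcsd-2 count of 3 was 1 without control replicate 2, sucrose-starved replicate 1 or sucrose-starved replicate 2. The 2 lower genes in Mphd9-14 became 1 without control replicate 1 or 3 or sucrose-starved replicate 2 or 3. Oil body cell markers summed to 23.2 to 49.5 CPM in sucrose-starved Mpcsd-2, against 48.1 to 60.3 in its control, and to 48.8 to 63.7 CPM in sucrose-starved Mphd9-14, against 68.8 to 86.7 in its control. Their part was not tested.

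In these 9 comparisons, with all libraries, edgeR called none of the 9 genes of the chromosome 4 run, with adjusted p-values of 0.073 and above. Its summed level was 3933, 4327 and 6947 CPM in nitrate-starved Mpcsd-2, against 4426, 4435 and 7303 in its control, and 2316, 2346 and 2539 CPM in nitrate-starved Mperf20-21, against 2360, 2553 and 3070. In nitrate-starved Mphd9-14 it was 2518, 2625 and 2685 CPM, against 2506, 2515 and 2598. With all libraries the sums overlapped between starved and control plants in each line. The high Mpcsd-2 values are in nitrate-starved replicate 3 and control replicate 2, the libraries that resemble each other: Mp4g05960 of this run had 680, 642 and 1175 CPM in nitrate-starved Mpcsd-2, against 730, 1241 and 753 in its control. Whether a line differs from Tak-1 in its response was not tested, because no starved Tak-1 plants are in that set and the line and the experiment cannot be told apart.

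Differences between the lines in their responses were tested within the set, in 9 interaction contrasts added after the data were seen. For the 61 genes edgeR called 0 in each of the 9, with 0 to 15 genes at an unadjusted p under 0.05 and at most 0.319% of all genes called. With so few calls over all genes, a count of 0 does not set the 61 apart from other genes. DESeq2 called 1 gene for sucrose between Mperf20-21 and Mphd9-14 and 0 in the other 8. The differences in counts between lines given above are therefore not shown to be differences in response. For nitrate, 55 and 54 of the 61 were lower by sign in Mperf20-21 than in Mpcsd-2 and Mphd9-14 (median log2 differences of -0.18 and -0.20). Between Mpcsd-2 and Mphd9-14 it was 33 (-0.01). The chromosome 5 genes differed by -1.90 to -0.92 and -1.52 to -0.90 in the 2 contrasts with Mperf20-21, which share its libraries. Neither contrast called any of 13162 genes, and the shift over the 61 was not tested.

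**Figure D5:**
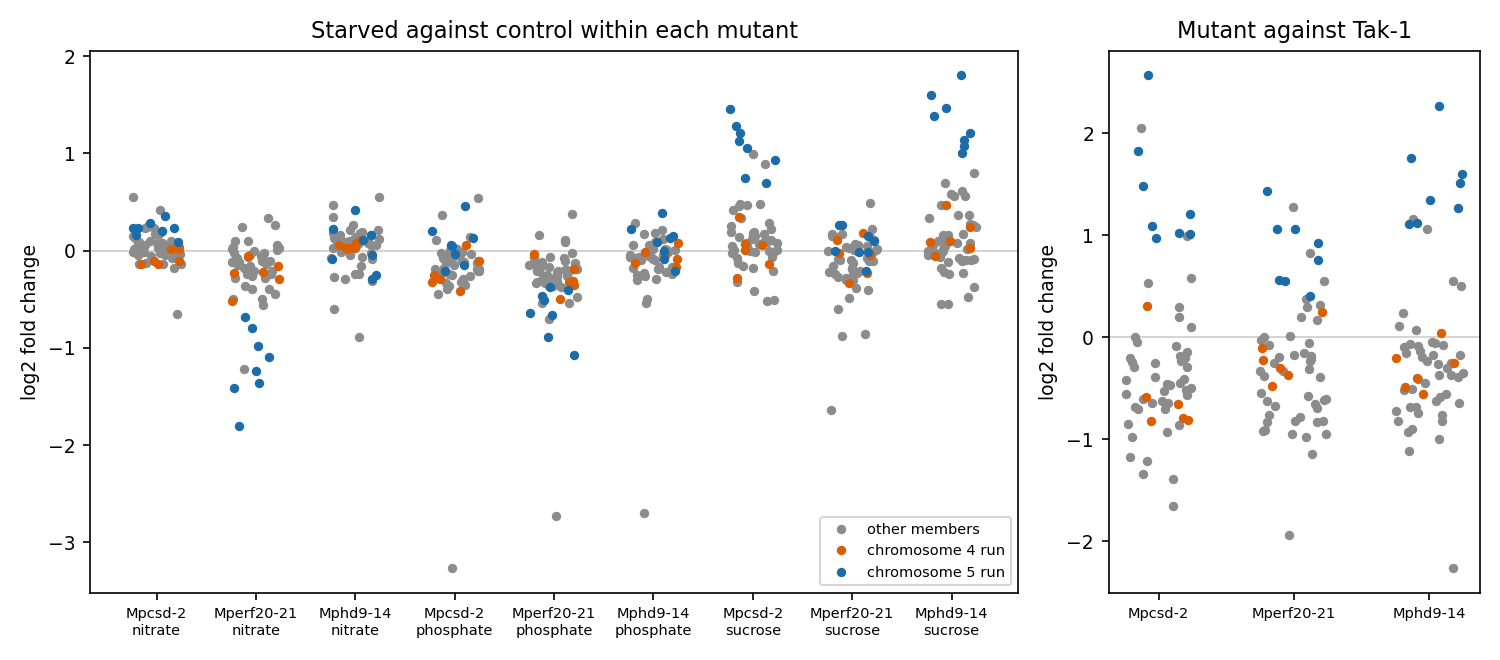
Left, log2 change of the 61 genes in nitrate-, phosphate- and sucrose-starved Mpcsd-2, Mperf20-21 and Mphd9-14 over the control of the same line; Mp2g25340 under phosphate, under -7 in each line, lies outside the plotted range. Right, log2 change of the 60 tested genes in each line over Tak-1 in control conditions, where the chromosome 5 run lies above 0 and the median of the genes below 0.

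The mutant set also allows mineral-starved plants to be set against sucrose-starved plants of the same line, in which case nitrate and phosphate share the sucrose-starved libraries. Nitrate-starved plants had 5 lower genes of the 61 in Mpcsd-2 (8.2%, against 11.9% of all genes), 8 in Mperf20-21 (13.1%, against 13%) and 10 in Mphd9-14 (16.4%, against 13.4%), all close to the background. Phosphate-starved plants had 22 lower genes in Mpcsd-2 (36.1%, against 16.1%), 6 in Mperf20-21 (9.84%, against 11.9%) and 15 in Mphd9-14 (24.6%, against 13.1%). Genes higher than in sucrose-starved plants numbered 3, 6 and 4 for nitrate in Mpcsd-2, Mperf20-21 and Mphd9-14 (9.72%, 12.7% and 12.7% of all genes) and 2, 3 and 2 for phosphate (15.0%, 12.3% and 13.1%). All 8 genes of the chromosome 5 run were lower in nitrate-starved than in sucrose-starved Mphd9-14 (-1.75 to -0.78) and in phosphate-starved than in sucrose-starved Mphd9-14 (-1.67 to -0.85). In Mperf20-21 the run had 6 genes lower for nitrate and 1 for phosphate, and in Mpcsd-2 it had 3 for nitrate and 7 for phosphate, or 0 and 2 without sucrose-starved replicate 2.

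These counts leaned on single libraries. For phosphate against sucrose, the 22 in Mpcsd-2 became 7 without phosphate-starved replicate 1 and 5 without sucrose-starved replicate 2. The 15 in Mphd9-14 became 9 without phosphate-starved replicate 2 and 7 without sucrose-starved replicate 2, and the 6 in Mperf20-21 became 2 or 3 without any 1 of 4 libraries (phosphate-starved replicates 1 and 2, sucrose-starved replicates 1 and 2). For nitrate against sucrose, the 5 in Mpcsd-2 became 1 without nitrate-starved replicate 2, 13 without nitrate-starved replicate 3, and 11, 0 and 8 without sucrose-starved replicates 1, 2 and 3. The 8 in Mperf20-21 became 4 without nitrate-starved replicate 1 and 3 without sucrose-starved replicate 2. Leaving out both Mpcsd-2 libraries that resembled another group, control replicate 2 and nitrate-starved replicate 3, gave 19 lower genes for nitrate and 29 for phosphate against sucrose. The 3 higher genes for nitrate in Mpcsd-2 became 1 without nitrate-starved replicate 1 or sucrose-starved replicate 2, the 6 in Mperf20-21 became 3 without nitrate-starved replicate 3 and 2 without sucrose-starved replicate 1, and the 4 in Mphd9-14 became 2 without sucrose-starved replicate 3. Higher genes for phosphate became 1 in Mpcsd-2 without sucrose-starved replicate 1 or 2, in Mperf20-21 without sucrose-starved replicate 2, and in Mphd9-14 without phosphate-starved replicate 2 or sucrose-starved replicate 3. Leaving out control replicate 2 and nitrate-starved replicate 3 of Mpcsd-2 also gave 0 lower genes for nitrate, 2 for phosphate and 1 for sucrose against the control, with 24 higher for sucrose. Shares of all genes called in the fits with libraries left out are not given here. The counts from those fits therefore have no background to be read against.

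In control conditions, where every line was compared with the same Tak-1 libraries, 60 of the 61 genes could be tested, Mp8g02690 having too few counts. Lower genes numbered 35 in Mpcsd-2 (58.3%, against 28.5% of 12565 genes), 35 in Mperf20-21 (58.3%, against 20.4%) and 33 in Mphd9-14 (55%, against 22.0%). Higher genes numbered 11 in Mpcsd-2 (28.3% of all genes), 14 in Mperf20-21 (21.0%) and 11 in Mphd9-14 (21.7%). The median log2 change was -0.41, -0.25 and -0.25, against -0.02, -0.01 and -0.02 over all genes. Oil body cell markers summed to 28.7 to 34.6 CPM in Mpcsd-2, 95.7 to 108 in Mperf20-21 and 76 to 90.6 in Mphd9-14, against 110 to 117 in Tak-1. Gemma cup and meristem markers summed to 33.5 to 35.4, 22.3 to 31.3 and 25.9 to 34 CPM in those lines, against 14 to 17.6 in Tak-1, and the part of either marker group was not tested.

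Several genes stood well under Tak-1. MpELO2 had 26.2, 26.4 and 25.1 CPM in Mpcsd-2, 28.6, 26.2 and 27.6 in Mperf20-21 and 25.6, 29.1 and 27.2 in Mphd9-14, against 49.1, 62.7 and 50.3 in Tak-1. The log2 changes were -0.98 ± 0.09, -0.98 ± 0.09 and -0.92 ± 0.09 (SE; edgeR adjusted p 3.7e-08, 7.1e-08 and 1.4e-07). Mp2g04090 had 41.8, 41.8 and 42.2 CPM in Mpcsd-2, 57.0, 59.6 and 59.1 in Mperf20-21 and 58.8, 59.8 and 55.5 in Mphd9-14, against 108, 121 and 109 in Tak-1, with changes of -1.34 ± 0.06, -0.95 ± 0.06 and -0.89 ± 0.06. For both genes every mutant library was below every Tak-1 library. MpIDS4 averaged 70.3 ± 0.896 CPM in Mpcsd-2, 61.6 ± 5.14 in Mperf20-21 and 65.6 ± 2.41 in Mphd9-14, against 116 ± 7.54 in Tak-1 (SD, n = 3 each; changes of -0.64, -0.92 and -0.76). MpLAR-like5 changed by -0.57, -0.68 and -0.58, MpRUP by -0.50, -0.82 and -0.64, and MpFBA4 by -0.29, -0.18 and -0.23 in Mpcsd-2, Mperf20-21 and Mphd9-14. Their adjusted p-values by edgeR were 0.026 or less.

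MpCupin84 was called in some lines but not in others. It had 39.4, 40.2 and 22.5 CPM in Mpcsd-2, 10.9, 9.65 and 8.83 in Mperf20-21 and 8.32, 7.56 and 6.49 in Mphd9-14, against 39.6, 41.3 and 31.1 in Tak-1. The log2 change was -0.04 ± 0.17 in Mpcsd-2 (edgeR adjusted p 0.84), -1.93 ± 0.18 in Mperf20-21 (1.2e-07) and -2.26 ± 0.19 in Mphd9-14 (2.3e-08). Mp2g25340 had 29.1, 30.2 and 31.0 CPM in Mpcsd-2, against 107, 81.9 and 113 in Tak-1 (-1.66 ± 0.22, edgeR adjusted p 3.4e-06), and its changes in Mperf20-21 (-0.26 ± 0.20) and Mphd9-14 (-0.07 ± 0.20) were not called. Mp2g15290 was lower in Mperf20-21 (-1.14 ± 0.15) and Mphd9-14 (-1.12 ± 0.15), and its change in Mpcsd-2 was 0.30 ± 0.14 (edgeR adjusted p 0.074).

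The chromosome 5 run made up 8 of the genes above Tak-1 in each line: it was higher in Mpcsd-2 (0.97 to 2.57), in Mperf20-21 (0.40 to 1.44) and in Mphd9-14 (1.11 to 2.27). Its summed level was 2041, 2082 and 2209 CPM in Mpcsd-2, 1403, 1408 and 1686 in Mperf20-21 and 1873, 2303 and 2599 in Mphd9-14, against 783.2, 828.8 and 1047 in Tak-1. Mp5g04590 had 244, 232 and 235 CPM in Mpcsd-2, 137, 108 and 99.6 in Mperf20-21 and 198, 161 and 226 in Mphd9-14, against 37.2, 38.5 and 51.1 in Tak-1 (2.57 ± 0.13, 1.44 ± 0.13 and 2.27 ± 0.13). No mutant library overlapped Tak-1. MpRLK-Pelle_WAK_LRK10L-7 likewise had 22.8, 27.3 and 26.5 CPM in Mpcsd-2, 12.2, 12.2 and 10.5 in Mperf20-21 and 12.9, 12.1 and 14.1 in Mphd9-14, against 6.70, 6.06 and 6.83 in Tak-1 (2.05 ± 0.11, 0.83 ± 0.11 and 1.06 ± 0.11). MpHDAC12 was called higher in Mperf20-21 (0.38 ± 0.08) and Mphd9-14 (0.51 ± 0.08), with 0.10 ± 0.08 in Mpcsd-2.

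The chromosome 4 run lay on the other side, with 8, 6 and 7 of its 9 genes lower than Tak-1 in Mpcsd-2, Mperf20-21 and Mphd9-14 and 0 higher (median log2 changes of -0.65, -0.25 and -0.39). Of all genes, 28.5%, 20.4% and 22.0% were lower in these lines. Figures that follow are for the run. The summed level of the run was 2536, 2557 and 2629 CPM in Mpcsd-2, 3481, 3536 and 3632 in Mperf20-21 and 2943, 3268 and 3461 in Mphd9-14, against 3848, 3935 and 5107 in Tak-1. The levels of both runs also differed between sets for plants of like label. Control Mpcsd-2 plants averaged 2574 CPM for the chromosome 4 run in this set and 5388 CPM in the mutant starvation set. For the chromosome 5 run, Tak-1 plants in control conditions had 783.2 to 1047 CPM in this set and 1524 to 1864 CPM in the time course, where nitrate- and phosphate-starved Tak-1 had 740.4 to 1214 CPM. Control plants of Mpcsd-2 had 2041 to 2209 CPM for that run in this set and 1036 to 1458 in the mutant starvation set, and those of Mphd9-14 had 1873 to 2599 and 683.9 to 923. The Tak-1 level behind the comparison with the mutants thus lies inside the range of mineral-starved Tak-1 of the time course. Levels were scaled to library size within each set and are set side by side here without a test.

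Families with 1 gene each among the 61 were followed by lists of symbols, to be read against the shares of all genes called against Tak-1 in Mpcsd-2, Mperf20-21 and Mphd9-14 (28.5%, 20.4% and 22.0% lower; 28.3%, 21.0% and 21.7% higher). Of 37 fatty acid and lipid synthesis genes, 32 were tested against Tak-1, and 14, 11 and 7 were lower and 8, 5 and 6 higher in Mpcsd-2, Mperf20-21 and Mphd9-14, with medians of -0.14, -0.03 and -0.01. MpELO2 is the list's gene among the 61. Of 99 receptor-like kinases, 69 were tested, with 22, 20 and 16 lower and 25, 18 and 20 higher (medians of 0.01, -0.03 and -0.04). Of 103 cupins and germins, 24 were tested, with 9, 8 and 5 lower and 5, 3 and 4 higher (medians of -0.19, -0.13 and -0.10). In wild-type plants, which share 1 control, 11, 9 and 13 of 33 lipid genes were lower without nitrate, phosphate and sucrose and 4, 3 and 5 higher. In the same order, 14, 9 and 19 of 78 receptor-like kinases were lower and 20, 9 and 24 higher, and 7, 5 and 5 of 33 cupins and germins were lower and 6, 6 and 4 higher. Of all genes, 15.1%, 12.3% and 17.2% were lower and 16.5%, 12.3% and 18.1% higher in these comparisons.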

How the data were processed

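The authors deposited 1 table of raw counts for each set. The tools named are STAR 2.7 and DESeq2, per the submitters' processing notes. The genome build, annotation and counting program are not given in the sources used here. Libraries were directional and poly(A)-selected, per the labels' protocols. The labels do not say whether replicates were separate cultures, and the p-values cover no more than the spread among these libraries, possibly a technical one.

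CPM used column totals. For each table, 1 model was fitted in edgeR 4.0.16 with limma 3.58.1 under R 4.3.3, using TMM scaling, filterByExpr, quasi-likelihood F-tests on group contrasts, two-sided, Benjamini-Hochberg over all genes tested, called at an adjusted p under 0.05. SE is that of the log2 fold change. Shares of all genes called are given only for fits with all libraries and at an adjusted p under 0.05. Counts without a library, or at an unadjusted p under 0.05, have no such background here. The edgeR calls were tried on simulated counts in which each gene was drawn on its own and no library stood apart. That trial does not cover outlying libraries or neighbouring genes that vary together. Alternatives were DESeq2 1.42.0, other scaling, no filter, a replicate block and leaving out libraries. Symbols and gene order came from a RefSeq table of assembly MpTak2_v7.1, matched by locus number for 17384 of 19355 genes. No sequence was used.

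The members and lists were chosen with earlier results of these data known. Genes were named by rule: the 12 lowest mineral ratios, members on a list, up to 3 called members with the highest and 3 with the lowest change at 72 h against 6 h per nutrient, up to 6 called alike in all 3 mutants against Tak-1, the 5 of highest control CPM, and the 2 genes nearest each limit on either side. A part for members with a symbol called lower in all 3 mutants under both nitrate and phosphate starvation, and one for members called higher under nitrate or phosphate starvation in any mutant, gave 0 genes. Fewer were named where space required. The K. nitens table was not analysed here.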

Additional observations from a re-analysis of the deposited data

How the results depend on the processing

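Choosing the genes by edgeR calls in place of ratios gave 638 genes, 57 of them among the 61, TMM-scaled CPM gave 89 with all 61, a pseudocount of 0 gave 62 with 60 shared, and leaving out 1 library gave 57 to 67. The replicate numbers did not pair the samples (correlations of same-numbered deviations from -0.705 to 0.487, with 0 of 25 comparisons having all over 0.1). With the replicate number as a block, nitrate- against sucrose-starved Mpcsd-2 gave 3 lower genes, not 5, and no other count moved by over 1.5 times. DESeq2 gave 1 gene, not 0, lower for phosphate against sucrose at 72 h and 1 for the sucrose contrast between Mperf20-21 and Mphd9-14.

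Leaving out libraries, lower genes against the own control ranged from 2 to 5 (phosphate) and 1 to 2 (sucrose) in Mpcsd-2, 0 to 5 (nitrate), 2 to 6 (phosphate) and 1 to 3 (sucrose) in Mperf20-21, and 1 to 3 (sucrose) in Mphd9-14. Against sucrose-starved plants the ranges for nitrate and phosphate were 0 to 19 and 5 to 29 in Mpcsd-2, 3 to 9 and 2 to 7 in Mperf20-21, and 8 to 11 and 7 to 18 in Mphd9-14. Phosphate against sucrose at 6 h ranged from 4 to 12. Calls against Tak-1 ranged from 45 to 48, 42 to 47 and 41 to 45. The cause of these changes was not tested. Of tests on named genes, 24 under other settings lost their call and 776 were unchanged. Without a library 199 lost it and 1020 were unchanged, and 0 reversed in either case. How many of the unchanged tests were calls at the start is not given here. With 3 libraries per group, genes under about 1 CPM, such as phosphate-starved Mp2g25340, have folds set by a handful of counts.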
